A study of Sus scrofa domesticus with 28 samples.

Results

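Late scar under pressure was compared with late scar under sham treatment in the red Duroc pig, a breed used as a model of hypertrophic scarring. The members are the 8 of the study's 28 skin biopsies that the sample titles call late and give as pressure or sham. The late pressure group held 4 biopsies, 2 from scar called hyper and 2 from scar called hypo in the pigmentation label, and the late sham group held 4 made up in the same way. All came from 2 juvenile castrated male pigs, numbered 49 and 50, and each animal gave 1 biopsy to each combination of treatment and pigmentation, so that there were 4 matched pairs. Every pressure biopsy was from the right side and every sham biopsy from the left side, so side and treatment cannot be told apart within the late groups. How much pressure was applied, with what device and for how long is not given in the sources used here. The titles also carry a number of unstated unit, which was equal for pressure and sham in 2 pairs (hyper of animal 50 and hypo of animal 49) and higher for pressure in the other 2 pairs. The rest of the series comprised 8 mid scar biopsies under pressure or sham, 8 early sham scar biopsies from both sides, and 4 biopsies of control skin.

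Compression is a standard treatment for raised scars in people. Scar bulk is set by fibroblasts and contractile myofibroblasts, which lay down collagen under TGF-beta signalling and sense load through integrins, RHOA and the actin cytoskeleton, and by the proteases and protease inhibitors that remodel the matrix. Immune cells stay in scar long after closure, and type I and type II interferons induce in them and in resident skin cells a shared set of antiviral, antigen-processing and chemokine genes. The comparison asked which genes differed between compressed and sham-treated scar in the late phase.

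Each biopsy was hybridised to its own Agilent pig array, with the biopsy RNA in Cy5 and a universal pig reference RNA in Cy3 on every array and no dye swap. Levels below are log2 ratios of biopsy to reference RNA, in the order hyper of animal 49, hyper of animal 50, hypo of animal 49 and hypo of animal 50, and differences are pressure minus sham on the log2 scale, given with the standard error of a limma model fitted to all 28 arrays. Between 14786 and 20529 of 43603 probes had a Cy5 signal well above background in the pressure biopsies, against 13709 to 18867 probes in the sham biopsies. Epidermal genes were measured in all 8 biopsies, with the keratinocyte list -2.02 to -0.04 relative to control skin under pressure and -2.11 to -0.48 under sham. Genes of skeletal muscle fibres set 1 biopsy apart: the mean of 32 such genes was 5.10, 0.23, 0.54 and 1.35 above control skin in the 4 pressure biopsies and 2.05, 0.46, 0.58 and 1.36 in the 4 sham biopsies. The pressure hyper biopsy of animal 49 had by far the highest muscle values. The late arrays lay on 6 slides, and 1 slide held both treatments.

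No feature passed the threshold in late pressure against late sham. Of 18769 features tested, 0 had an adjusted p below 0.05 with limma (percent called 0), the lowest adjusted p being 0.443, and 1053 had an unadjusted p below 0.05. Of these, 547 were higher under pressure (2.91% of features) and 506 were lower (2.70%). Over all features tested, 51.1% had a positive and 48.9% a negative difference. The median difference was 0.01 over all features and the median standard error 0.18, and the median 95% interval reached 0.38 log2 units to each side of the difference. When the log ratios were only centred on each array's median, 1286 were higher and 197 lower at unadjusted p below 0.05, with the median of all features at 0.09. The p-values measure the spread between biopsies of 2 animals and say nothing of the spread over further pigs. Read separately, hyper scar gave 0 features below an adjusted p of 0.05 with limma (994 at unadjusted p below 0.05), and hypo scar gave 0 (996 at unadjusted p below 0.05). The contrast of the 2 pigmentation types in their response to pressure also gave 0 (limma; 892 at unadjusted p below 0.05), as did the contrast of late with mid scar (limma; 871). Single biopsies changed these counts: without the pressure hyper biopsy of animal 50, which leaves the biopsy with the highest muscle values as the lone pressure biopsy of hyper scar, 48 features passed in the main comparison, all of them higher, 298 in hyper scar and 103 in the contrast of hyper with hypo scar. Among the 9 of the 48 with a symbol were the muscle genes MYOZ2, ABRA, CKMT2 and TNNI1. Without any other single biopsy the main comparison gave at most 5 features, and the details are given with the alternatives.

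Correlation between the 4 pairs was weak across the array. The spread of pressure minus sham over features was 0.62 (SD) in the hyper pair and 0.50 in the hypo pair of animal 49, and 0.41 and 0.39 in those of animal 50. Without pressure, right minus left in animal 49 had a smaller spread, 0.34 and 0.37 in early sham scar and 0.35 in control skin. The same spread in animal 50 was like that of its late pairs or wider, at 0.39 and 0.50 in early sham scar and 0.49 in control skin. Across features, which are not independent, the differences of any 2 late pairs correlated between -0.15 and 0.20. With 17823 features measured on all 8 arrays, 1050 were higher under pressure in all 4 pairs (5.89%) and 1052 were lower (5.90%). The pressure and sham biopsies did not overlap for 0.696% of these features with higher values under pressure and 0.746% with lower values.

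The interferon response list had the lowest median difference of the 30 lists measured, although none of its genes passed after adjustment. Of 36 genes on that list 26 were measured, 0 passed after adjustment, and 18 were lower at unadjusted p below 0.05 where 2.70% of all features were. In all 4 pairs 14 were lower, against 5.90% of all features, and none was higher in all 4; for 3 (IFIT1, GBP1 and IRF1) the groups did not overlap, against 0.746% of all features. The median difference of the list was -0.65, against 0.01 over all features, and it was -0.69 in hyper scar and -0.61 in hypo scar. In bulk tissue, fewer cells that express such genes and less RNA per cell cannot be told apart.

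**Figure D1:**
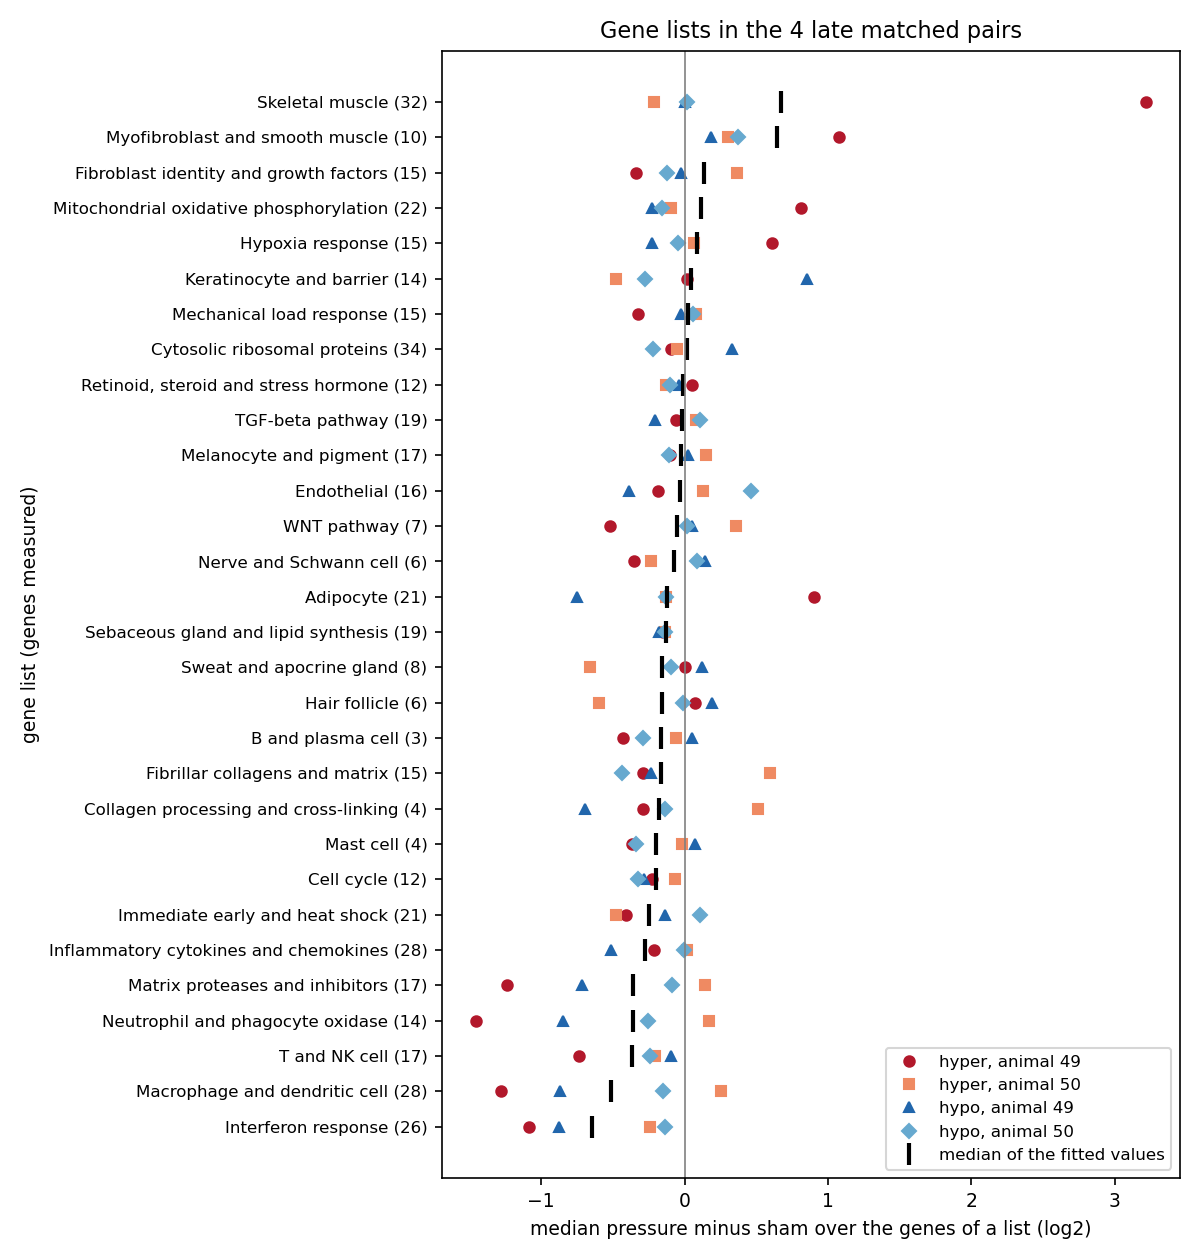
Median difference of pressure minus sham over the measured genes of each of 30 gene lists, on a log2 axis, with 1 symbol for each matched pair of late biopsies and a bar for the median of the fitted values. The interferon list lies below 0 in all 4 pairs, at -1.09, -0.24, -0.87 and -0.13, and the skeletal muscle list lies at 3.22 in the hyper pair of animal 49 and near 0 in the other 3.

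By biopsy, the mean of the 26 interferon genes stood above control skin by 0.49, 0.52, 0.45 and 0.65 in the pressure biopsies and by 1.63, 0.79, 1.46 and 0.86 in the sham biopsies. Every sham biopsy was above every pressure biopsy, and every pressure biopsy was above the 4 control skin biopsies, which ranged over -0.37 to 0.26. The gap was wider in animal 49, with pair medians of -1.09 and -0.87, than in animal 50, with -0.24 and -0.13. The number lower at unadjusted p below 0.05 was 5 without the sham hyper biopsy of animal 49 (1.51% of all features). It was 9 without that animal's sham hypo biopsy (3.44%) and 10 without its pressure hypo biopsy (2.19%). Within the 1 slide that held both treatments, 25 of the 26 genes were lower in the pressure biopsy than in the mean of the 2 sham biopsies, against 53.0% of all features, and the list median there was -0.74. The 2 sham biopsies were of other pairs, and 1 of them was the hyper biopsy of animal 49, which had the highest interferon mean. In the same contrast all 21 adipocyte genes and all 32 skeletal muscle genes were lower and 14 of 15 matrix genes were higher.

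Among the effector proteins of the response, IFIT1, which binds viral RNA lacking a host cap, had levels of 0.29, 0.19, -0.10 and 0.18 in the pressure biopsies and 1.52, 1.20, 1.42 and 0.72 in the sham biopsies. The groups did not overlap, and the difference was -1.07 ± 0.23, or 0.475 of the sham level (limma adjusted p = 0.443). IFIT3, its partner protein, had levels of 1.31, 0.48, 0.31 and 0.60 under pressure and 1.73, 1.62, 1.73 and 1.05 under sham, lower in all 4 pairs but with 1 pressure biopsy above the lowest sham biopsy. ISG15, a ubiquitin-like protein that is attached to other proteins, had 0.74, 0.83, 1.89 and 0.76 under pressure and 3.02, 1.40, 2.58 and 1.98 under sham, with a difference of -1.19 ± 0.36. The pressure hypo biopsy of animal 49 lay apart from the other 3 pressure biopsies and overlapped the sham group. MX1, a dynamin-like antiviral GTPase, had 0.23, -0.25, -0.29 and -0.13 under pressure and 2.10, 0.20, 1.26 and 0.02 under sham. Its high values were those of the 2 sham biopsies of animal 49, while in animal 50 the pairs differed by -0.46 and -0.16. USP18, the protease that takes ISG15 off its targets, differed by -0.61 ± 0.24, RSAD2 (viperin) by -0.83 ± 0.31 and OAS2, a sensor enzyme of the RNase L pathway, by -0.71 ± 0.27, each lower in all 4 pairs.

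GBP1, a guanylate-binding protein typical of the response to interferon gamma, had -1.55, -1.53, -2.25 and -1.43 under pressure and -0.37, -0.73, -0.28 and -0.97 under sham. The groups did not overlap and the difference was -1.1 ± 0.29 (limma adjusted p = 0.861), with pairs at -1.18, -0.80, -1.96 and -0.46. Of the transcription factors, IRF1 had -1.22, -0.44, -1.15 and -0.58 under pressure and -0.17, -0.19, 0.50 and -0.04 under sham, again without overlap, and differed by -0.88 ± 0.24. IRF7 differed by -0.51 ± 0.18 and STAT2 by -0.51 ± 0.20, each lower in 3 of 4 pairs, while IRF9 (-0.14 ± 0.15) had p above 0.05. IFIH1 (MDA5), a cytosolic sensor of double-stranded RNA, had 0.06, 0.11, 0.25 and 0.09 under pressure and 1.54, 0.42, 1.22 and 0.21 under sham. Its pressure values were tightly grouped, and the 2 sham values of animal 49 were far above the rest. The receptor chain IFNAR1 differed by -0.18 ± 0.16.

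The chemokines that interferons induce had wider spread. CXCL10, a ligand of CXCR3 on T cells, had -1.0, -1.25, -1.31 and -1.27 under pressure and 1.36, -0.28, 2.42 and -1.50 under sham, a difference of -1.71 ± 0.62. Its sham biopsies ran over almost 4 log2 units and the hypo pair of animal 50 went the other way, at 0.23. CXCL9, a further ligand of that receptor, differed by -0.68 ± 0.38. The immunoproteasome subunits PSMB9 and PSMB8, which cut peptides for class I presentation, differed by -0.84 ± 0.32 and -0.51 ± 0.24 and were lower in all 4 pairs. The peptide transporter TAP1 differed by -0.41 ± 0.24, with the pairs of animal 49 below 0 and those of animal 50 above it.

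**Figure D2:**
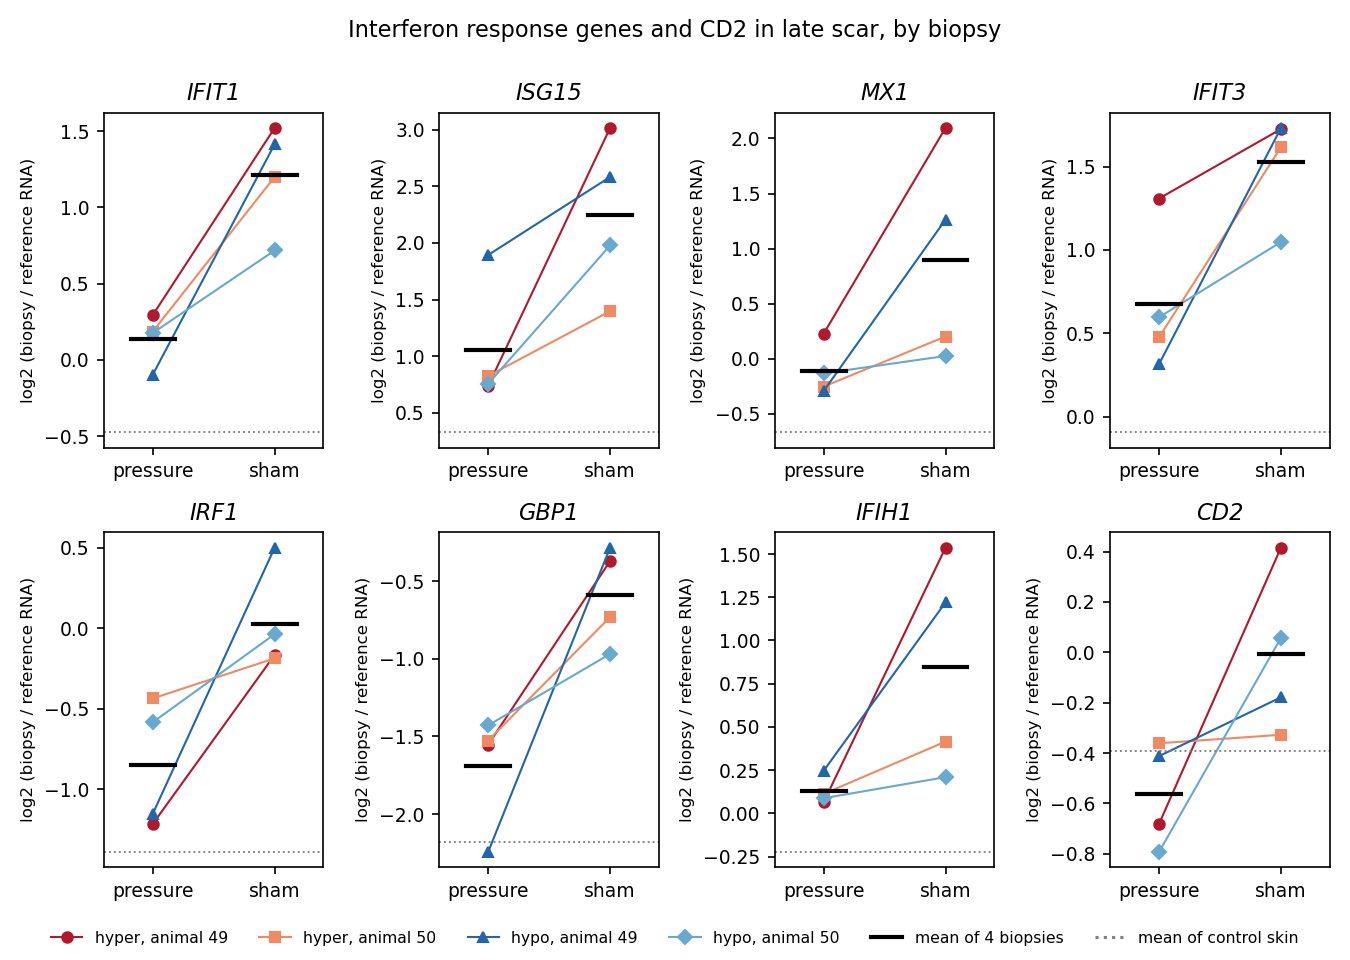
Log2 ratio of biopsy to reference RNA for 7 interferon response genes and the T cell gene CD2 in the 4 late pressure biopsies (left) and the 4 late sham biopsies (right), with lines joining matched pairs, black bars at group means and a dotted line at the mean of 4 control skin biopsies. Every line rises to sham, and the pressure and sham points do not overlap for IFIT1, IRF1, GBP1 and CD2.

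The same genes were set beside mid scar and beside the 2 sides of early scar. In mid scar the interferon list had a median difference of pressure minus sham of 0.09, with pair medians of 0.28, 0.21, -0.28 and 0.01. IFIT1 differed between the phases by -1.12 ± 0.33 and GBP1 by -1.57 ± 0.41 (late minus mid), and neither passed, with limma adjusted p of 0.974 and 0.974. In early scar, which had sham treatment on both sides, the right minus left median over the list was -0.28. The 4 early pairs had medians of -0.03, -0.48, 0.0037 and -0.66, and both low values were of animal 50. In control skin the right minus left medians were -0.24 and 0.49 in animals 49 and 50. Of all features, 0 differed between the sides of early scar with limma (percent called 0; 636 at unadjusted p below 0.05), and the same 8-array design on the late biopsies gave 0 (628 at unadjusted p below 0.05).

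The T and NK cell list was lower under pressure in its mean, by small amounts. Of 17 measured, 5 were lower at unadjusted p below 0.05 (CD2, KLRK1, IL7R, GZMH and GZMK, against 2.70% of all features), 0 were higher, and 4 were lower in all 4 pairs (5.90%). The list mean stood above control skin by 0.14, 0.20, 0.28 and 0.40 in the pressure biopsies and by 0.65, 0.45, 0.45 and 0.52 in the sham biopsies, again without overlap. Right minus left in early sham scar, without pressure, was also below 0 in all 4 pairs, with list medians of -0.06, -0.05, -0.13 and -0.45. In control skin the right minus left medians were 0.21 and 0.11 in animals 49 and 50. The part of side in the late difference was not tested. CD2, an adhesion receptor of T and NK cells, had -0.68, -0.36, -0.41 and -0.79 under pressure and 0.42, -0.33, -0.18 and 0.06 under sham. It was well above background in 0 pressure biopsies and 1 sham biopsy. By the Cy5 channel alone it was about 1.44-fold higher in sham scar. Such fold values compare 1 dye between arrays, so they are open to differences in intensity between arrays and spots. They carry no margin for the spread between biopsies, and for CD2 the higher group was itself mostly dim. KLRK1, the activating receptor NKG2D, differed by -0.49 ± 0.18 and was not well above background under pressure (about 1.28-fold higher in sham). IL7R, the receptor that keeps memory T cells alive, differed by -0.35 ± 0.14 and was likewise dim under pressure (about 1.17-fold higher in sham). GZMH, a granule protease, was measured on all 8 arrays and had -0.55, -0.44, -0.18 and 0.20 under pressure and 0.31, -0.24, -0.02 and 0.44 under sham. CD3E, part of the T cell receptor complex, differed by 0.12 ± 0.17 and CD8A by -0.23 ± 0.23.

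Macrophage and dendritic cell genes split by animal. Of 28 measured, 3 (SLA-DMB, FCGR1A and FCGR3A) were lower at unadjusted p below 0.05, against 2.70% of all features, and 1 (CD14) was lower in all 4 pairs, against 5.90%. The list median was -0.51, but the pair medians were -1.28, 0.26, -0.87 and -0.15. The list mean stood 0.76, 0.83, -0.07 and 0.38 from control skin under pressure and 1.93, 0.47, 1.20 and 0.55 under sham, so the high values were those of the sham biopsies of animal 49, which also held the highest interferon values. The part of macrophage RNA in the interferon result was not tested. SLA-DMB, which loads peptides on class II molecules, had -0.52, 0.01, -1.46 and -0.90 under pressure and 1.34, -0.16, 0.69 and -0.56 under sham. FCGR3A, a low-affinity receptor for IgG, had -0.71, -0.27, -1.41 and 0.01 under pressure and 0.70, -0.27, -0.31 and 0.16 under sham, and its pairs in animal 50 were at 0.0023 and -0.16. The neutrophil and phagocyte oxidase list (pair medians -1.46, 0.17, -0.84 and -0.26) and the protease list below had the lowest values in the same 2 pairs.

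**Figure D3:**
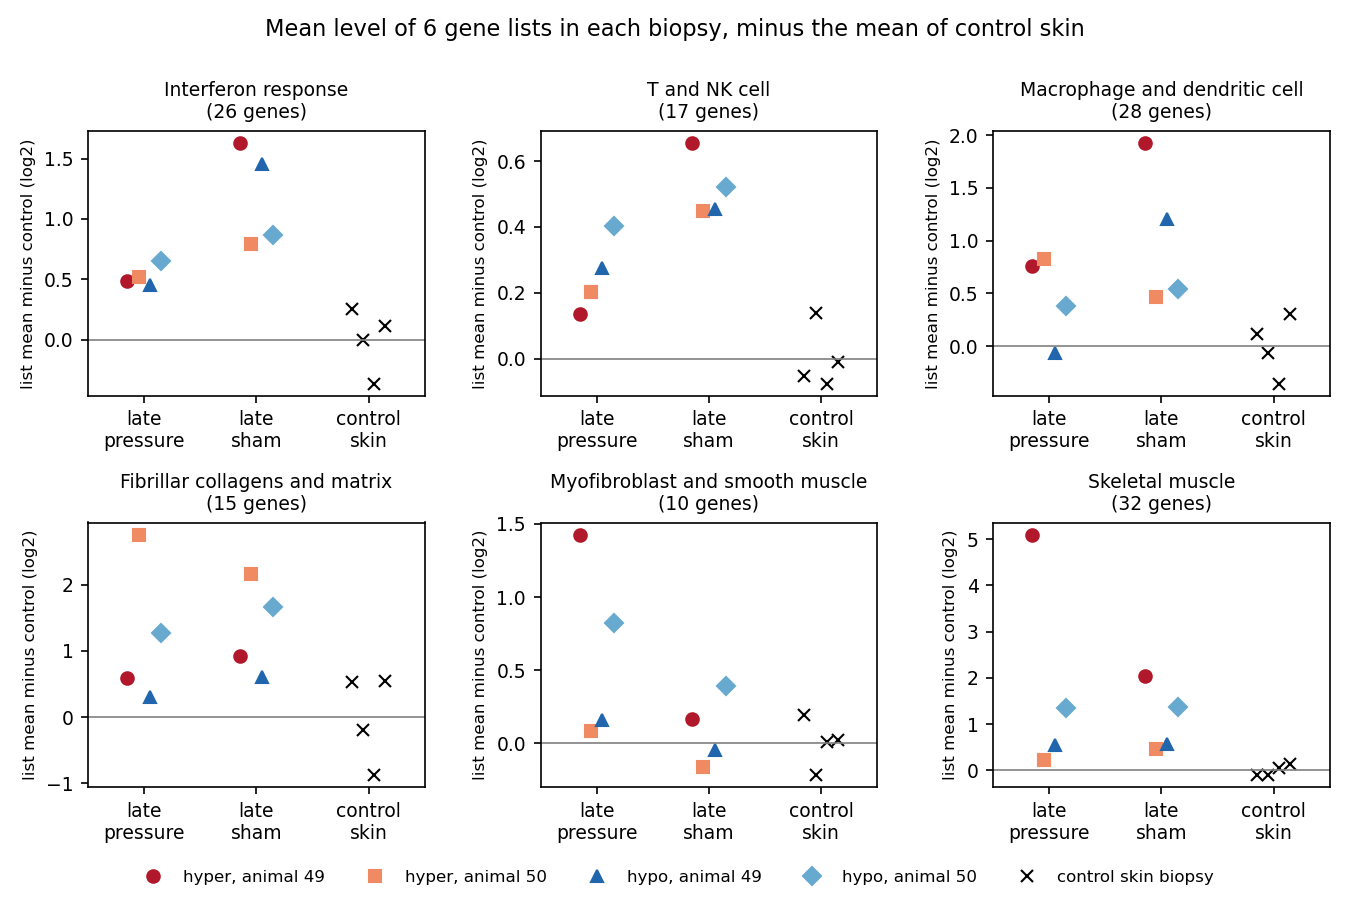
Mean of the measured genes of 6 lists in each late pressure, late sham and control skin biopsy, minus the mean of control skin, on a log2 axis. The interferon and the T and NK cell means of the 4 pressure biopsies lie below those of all 4 sham biopsies, and the pressure hyper biopsy of animal 49 stands alone in the skeletal muscle panel at 5.10.

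Of the inflammatory genes, 2 of 28 were lower at unadjusted p below 0.05, against 2.70% of all features. CCL3L1, a chemokine that draws monocytes and T cells, had -0.51, -0.76, -0.98 and -0.49 under pressure and -0.22, 2.85, -0.59 and -0.36 under sham. Its difference of -1.11 ± 0.37 came from the sham hyper biopsy of animal 50, which lay more than 3 log2 units above the other 3, and by pair it was -0.29, -3.61, -0.39 and -0.13. CCL3L1 belongs to a family of near-identical copies, which 1 probe need not tell apart. CCL4, a related chemokine, differed by -0.55 ± 0.25. ALOX5AP, needed for leukotriene synthesis in leukocytes, had -0.87, -0.40, -1.01 and -0.76 under pressure and 0.29, -0.29, -0.30 and 0.24 under sham, with no overlap and a difference of -0.75 ± 0.25. PDE4B, which breaks down cyclic AMP in immune cells, differed by -0.39 ± 0.14. Among immediate early and heat shock genes 3 of 21 were lower at unadjusted p below 0.05, again against 2.70%. The median of that list was -0.25, beside -0.22 for pressure minus sham in mid scar. Right minus left in early sham scar, without pressure, had a list median of -0.37. The nuclear receptor NR4A3 differed by -1.60 ± 0.66, with pairs at -2.37, -2.02, -1.90 and -0.12, while for the chaperone genes HSPA6 and HSPH1 the sham hyper biopsy of animal 49 was far above the rest, at 5.19 and 2.55.

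The contractile list had a median difference of 0.65, and its highest values were in the biopsy with the highest muscle values. Of 10 measured, 4 were higher at unadjusted p below 0.05, where 2.91% of all features were, and 1 was lower; 3 were higher in all 4 pairs (5.89%). CNN1, the calponin of smooth muscle, had 0.07, -2.26, -1.29 and -1.37 under pressure and -1.98, -2.81, -2.54 and -2.37 under sham, a difference of 1.21 ± 0.37 or 2.31-fold (limma adjusted p = 0.861). It was higher in all 4 pairs, and the pressure hyper biopsy of animal 50 lay within the sham range. MYL9, the regulatory light chain of non-sarcomeric myosin, had -0.71, -1.33, -1.30 and -0.51 under pressure and -1.57, -1.64, -1.65 and -1.32 under sham, higher in all 4 pairs. TPM2, a tropomyosin, had 0.57, -1.05, -1.02 and -0.74 under pressure and -0.72, -1.90, -1.35 and -1.11 under sham. ACTA2, the actin that marks myofibroblasts, had 2.46, 0.18, 0.15 and 0.53 under pressure and 0.64, -0.56, 0.16 and 0.20 under sham, with the hypo pair of animal 49 at -0.01.

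The contractile list mean was 1.43, 0.08, 0.16 and 0.82 above control skin under pressure and 0.16, -0.17, -0.05 and 0.39 under sham. It was highest in the pressure hyper biopsy of animal 49, which also had the highest skeletal muscle mean. The gene DES is on both lists, so the 2 means are not separate measures. The part of muscle in the contractile values was not tested. All 32 skeletal muscle genes had a positive difference (51.1% of all features), with 0 at unadjusted p below 0.05 and pair medians of 3.22, -0.21, 0.0036 and 0.01. The fast myosin gene MYH2 was at 4.15 in that biopsy and between -3.58 and -2.14 in the other 7. Without that biopsy 0 of the 10 contractile genes were higher at unadjusted p below 0.05, against 2.76% of all features. The contractile median without it was 0.21, against 0.65 with it. Within the slide that held both treatments, where the pressure biopsy was the hyper one of animal 50, the contractile median was -0.09 and the muscle median -1.44. In the other 3 matched pairs the contractile medians were 0.30, 0.18 and 0.37. CKMT2, a creatine kinase of muscle mitochondria, was at 3.50, -0.08, 0.07 and 0.09 by pair. TNNI1, a troponin of slow muscle, was well above background in 1 pressure biopsy and 0 sham biopsies (about 1.6-fold higher under pressure by Cy5 alone). The hypoxia list, which holds glycolytic enzymes, had a median of 0.08, and GAPDH in it was at 2.77 in the hyper pair of animal 49 and at 0.24, 0.04 and 0.13 in the others. MYL6, the essential light chain that MYL9 partners, differed by -0.59 ± 0.16, fitted without the pressure hyper biopsy of animal 50, where its spot was missing.

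**Figure D4:**
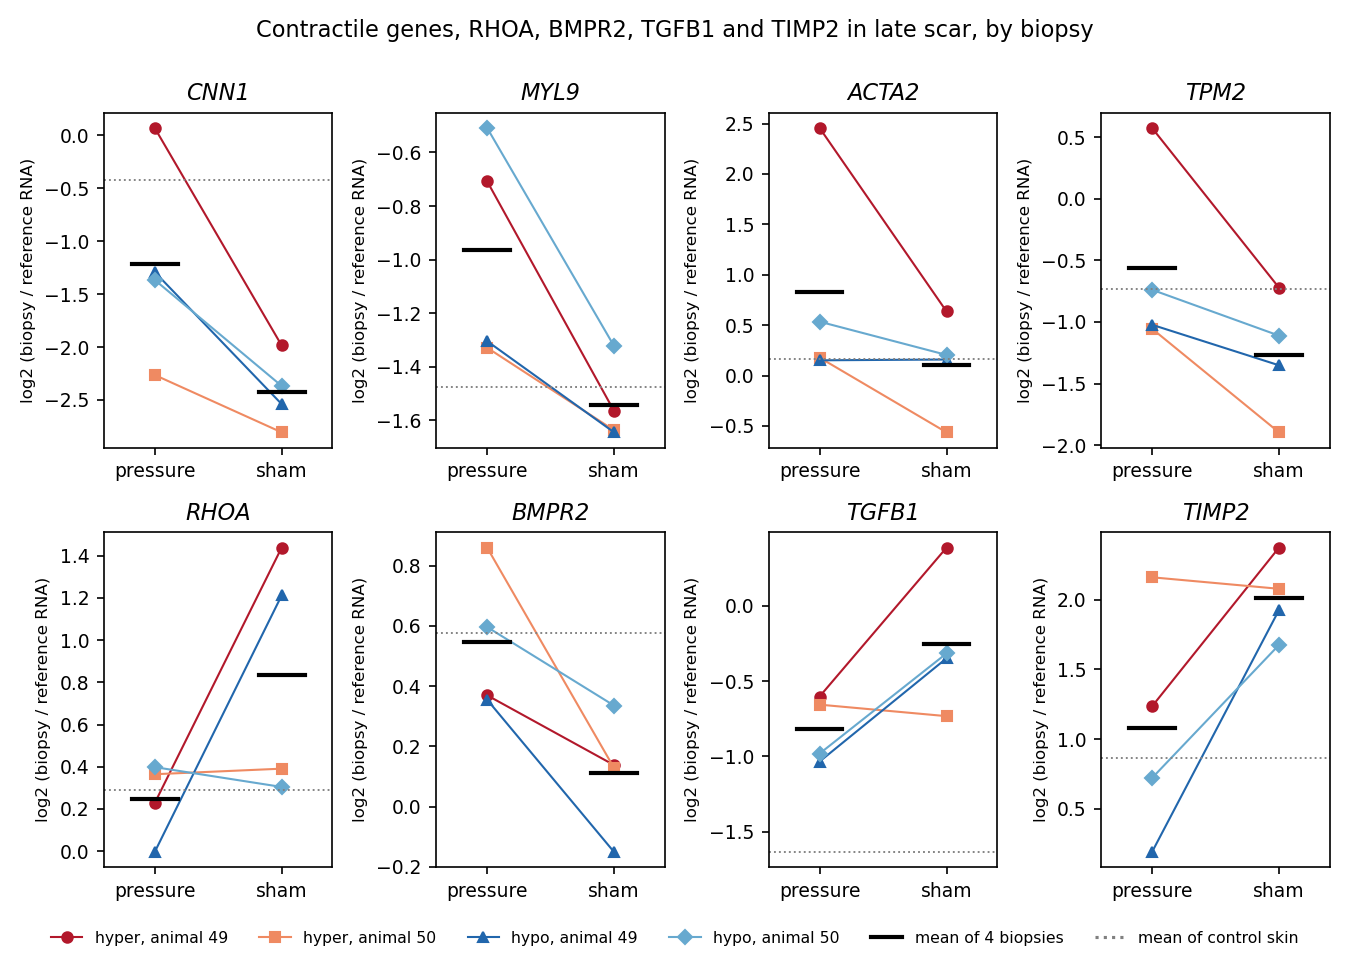
Log2 ratio of biopsy to reference RNA for 4 contractile genes, RHOA, the receptor BMPR2, TGFB1 and TIMP2 in the late pressure (left) and late sham (right) biopsies, drawn as in the interferon plot. The pressure hyper biopsy of animal 49 is highest for CNN1, ACTA2 and TPM2, and the BMPR2 points of the 2 groups do not overlap.

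The scar matrix list had overlapping values in pressure and sham biopsies. Of 15 measured collagen and matrix genes, 0 were at unadjusted p below 0.05 in either direction, and the median difference was -0.16. The list mean was above control skin by 0.60, 2.76, 0.30 and 1.27 under pressure and by 0.92, 2.16, 0.61 and 1.66 under sham, highest in the 2 hyper biopsies of animal 50, and the groups overlapped. COL1A2, a chain of collagen I, had 2.67, 6.20, 3.42 and 4.26 under pressure and 2.88, 5.67, 3.42 and 5.25 under sham, and its difference of -0.17 ± 0.76 had a 95% interval of -1.76 to 1.42. A 2-fold difference in either direction lies inside that interval. POSTN (periostin), abundant in scar, differed by -0.33 ± 0.51, and COL5A1 by -0.04 ± 0.48, with 2 of its 3 probes in that direction. The small proteoglycans LUM and DCN, which control collagen fibril width, were the 2 lower in all 4 pairs, against 5.90% of all features. The pairs were at -0.66, -0.05, -0.60 and -0.01 for LUM and at -0.29, -0.09, -0.15 and -0.75 for DCN. Of 4 genes for collagen processing, among them LOX (-0.17 ± 0.50), the enzyme that cross-links collagen, and the collagen chaperone gene SERPINH1 (0.09 ± 0.39), 0 were at unadjusted p below 0.05.

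Of 17 matrix proteases and inhibitors, 1 was lower at unadjusted p below 0.05 (2.70% of all features) and 16 had a negative difference (48.9% of all features). TIMP2, an inhibitor of metalloproteases, had 1.24, 2.16, 0.19 and 0.72 under pressure and 2.37, 2.08, 1.93 and 1.68 under sham, lower in 3 of 4 pairs, with a difference of -0.94 ± 0.30. MMP9, a gelatinase of leukocytes, had 2.46, 1.29, 0.23 and -0.05 under pressure and 3.78, 1.15, 4.01 and 0.38 under sham, and CTSK, a collagen-degrading cathepsin, had 3.31, 3.43, 0.94 and 1.65 under pressure and 4.71, 2.92, 3.50 and 1.98 under sham. For both, the 2 sham biopsies of animal 49 were highest, as for the macrophage genes, and the list's pair medians were -1.24, 0.14, -0.72 and -0.09.

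In the TGF-beta family, 2 of 19 genes were higher and 1 was lower at unadjusted p below 0.05 (2.91% and 2.70% of all features), with a median of -0.02. The ligand TGFB1 had -0.60, -0.66, -1.03 and -0.98 under pressure and 0.39, -0.73, -0.35 and -0.32 under sham, lower in 3 of 4 pairs, and differed by -0.57 ± 0.26, while TGFB3 differed by -0.16 ± 0.37. The type II receptor for bone morphogenetic proteins, BMPR2, had 0.37, 0.86, 0.35 and 0.60 under pressure and 0.14, 0.13, -0.15 and 0.34 under sham. Its groups did not overlap and it differed by 0.43 ± 0.15, but it was well above background on 1 array of each group. In mid scar BMPR2 differed by -0.33. Its partner BMPR1B differed by 0.36 ± 0.16. The intracellular signal carriers SMAD3 and SMAD4 differed by 0.01 ± 0.23 and -0.08 ± 0.14 (3 of 5 SMAD4 probes in that direction), and the matrix protein CTGF, a target of both TGF-beta and load, by -0.51 ± 0.53.

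Of 15 genes of the response to load, 1 was lower at unadjusted p below 0.05 and 0 were higher (2.70% and 2.91% of all features), with a median of 0.02. The lower one, RHOA, the GTPase that drives actomyosin tension, had 0.23, 0.36, -0.004 and 0.40 under pressure and 1.44, 0.39, 1.21 and 0.30 under sham. Its 2 high values were the sham biopsies of animal 49, and in animal 50 the pairs were at -0.03 and 0.09. VCL (vinculin), which ties integrins to actin, was the 1 of 15 higher in all 4 pairs, against 5.89% of all features. Its pairs were at 0.38, 0.15, 0.14 and 0.59. The integrin chain ITGB1 differed by 0.33 ± 0.21, with 2 of its 6 probes in that direction, and CAV1, which builds caveolae, by 0.02 ± 0.30.

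Of 17 pigment genes measured, 0 were at unadjusted p below 0.05, with 2 higher and 1 lower in all 4 pairs (5.89% and 5.90% of all features). TYR, the first enzyme of melanin synthesis, had 0.28, 0.97, -0.34 and -0.60 under pressure and -0.02, 0.83, -0.91 and 0.06 under sham, against 3.05 in control skin, and was well above background on 1 array of each late group. DCT, a later enzyme of the same pathway, had 0.88, 0.79, 1.45 and 2.19 under pressure and 0.74, 1.72, 0.70 and 1.61 under sham. MITF, the transcription factor of melanocytes, differed by -0.55 ± 0.28.

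The other lists held between 0 and 3 members at unadjusted p below 0.05, where 2.91% of all features were higher and 2.70% lower. Of 19 sebaceous and lipid genes 3 were lower at unadjusted p below 0.05. They were SCD (-0.50 ± 0.22), which desaturates fatty acids, PLIN2 (-0.52 ± 0.24), which coats lipid droplets, and the sterol carrier STARD4. STARD4 was dim under pressure (about 1.23-fold higher in sham by Cy5 alone). PLIN2 had 0.65, 0.11, 0.51 and 0.13 under pressure and 1.28, 0.85, 1.17 and 0.20 under sham, with pairs at -0.63, -0.73, -0.66 and -0.07. Of 16 endothelial genes 1, the adhesion molecule ICAM2, was lower at unadjusted p below 0.05 (-0.66 ± 0.29), as was 1 of 4 mast cell genes, the IgE receptor chain MS4A2 (-0.41 ± 0.17). The fibroblast list had 0 of 15. In it 1 gene was lower in all 4 pairs, against 5.90% of all features. That was DPP4, a protease on the surface of a fibroblast subset (-0.36, -1.13, -0.35 and -0.43). Of 14 keratinocyte, 21 adipocyte, 15 hypoxia and 22 respiratory chain genes, and of 6 hair, 8 sweat gland, 6 nerve, 7 WNT and 3 B cell genes, 0 were at unadjusted p below 0.05 in either direction. Of 34 ribosomal protein genes 2 were lower, RPL3 (-0.35 ± 0.14) and RPS23 (-0.35 ± 0.15). No red blood cell gene of the list was among the features tested.

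Across all 2606 features with a symbol, the 15 higher and the 15 lower of lowest p with 1 sign in all 4 pairs had limma adjusted p of 0.443 or 0.861. Besides the genes above, the lower ones were DRAM2 (-0.61 ± 0.16), an autophagy regulator, DBF4 (-0.43 ± 0.13, 2 of 3 probes in that direction), the activator of the replication kinase CDC7, XIAP (-0.53 ± 0.19), an inhibitor of caspases, and CYBRD1 (-0.60 ± 0.22), an iron reductase. DRAM2 had -0.04, -0.01, -0.02 and -0.14 under pressure and 0.96, 0.16, 0.60 and 0.49 under sham, and neither its groups nor those of DBF4 and XIAP overlapped. Features named for low p tend to have groups without overlap, so for all of them this is no further result. Of all features, 0.746% were lower and 0.696% higher without overlap. Of 12 cell cycle genes 12 had a negative difference (48.9% of all features), with a median of -0.20. CDC20, an activator of the anaphase-promoting complex, was the 1 member lower at unadjusted p below 0.05 (2.70% of all features), at -0.27 ± 0.12 without overlap, and was well above background on 1 array of each group.

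Of the higher genes, ABCF1, an ATP-binding protein linked to translation, had 0.24, 0.59, 1.1 and 1.35 under pressure and -0.55, 0.48, -0.63 and 0.29 under sham and differed by 0.92 ± 0.20, with 2 of its 3 probes in that direction. DDX39B, an RNA helicase of mRNA export, differed by 0.58 ± 0.18, with 3 of 4 probes in that direction. NCOA4, which carries ferritin to autophagy, had 0.52, 0.80, 0.96 and 0.92 under pressure and -0.22, 0.79, -0.70 and 0.36 under sham. HOXA4, a positional homeobox gene, had 0.83, 0.41, 0.24 and 0.27 under pressure and -0.22, 0.12, -0.13 and -0.05 under sham without overlap. The potassium channel subunit KCNS3 differed by 0.92 ± 0.33, CAMK2D, a calcium-dependent kinase, by 0.57 ± 0.23, and the ubiquitin-conjugating enzyme UBE2D1 by 0.43 ± 0.17. For KCNS3 and CAMK2D the largest pair difference was that of the hyper pair of animal 49, at 2.16 and 1.44.

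Several of the higher genes were near the detection limit. DUOX1, an epithelial enzyme that makes hydrogen peroxide, had 0.23, 0.61, 1.05 and 1.64 under pressure and -0.29, 0.31, 0.79 and -0.06 under sham and was well above background in 3 pressure biopsies and 0 sham biopsies. By the Cy5 channel alone it was about 2.11-fold higher under pressure. Its maturation factor DUOXA1 was higher in all 4 pairs (0.36, 0.21, 0.68 and 0.33) but was not well above background on any late array. GPX2, a glutathione peroxidase of epithelia, and UPK2, a uroplakin, were well above background in 1 pressure biopsy each and 0 sham biopsies. By the Cy5 channel alone they were about 1.38-fold and 1.44-fold higher under pressure. CYP21A2, a steroid hydroxylase, differed by 0.45 ± 0.18, with 0.37, 0.35, 0.44 and 1.19 under pressure and 0.09, 0.23, 0.11 and 0.12 under sham, and the pressure hypo biopsy of animal 50 lay apart from the rest.

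**Figure D5:**
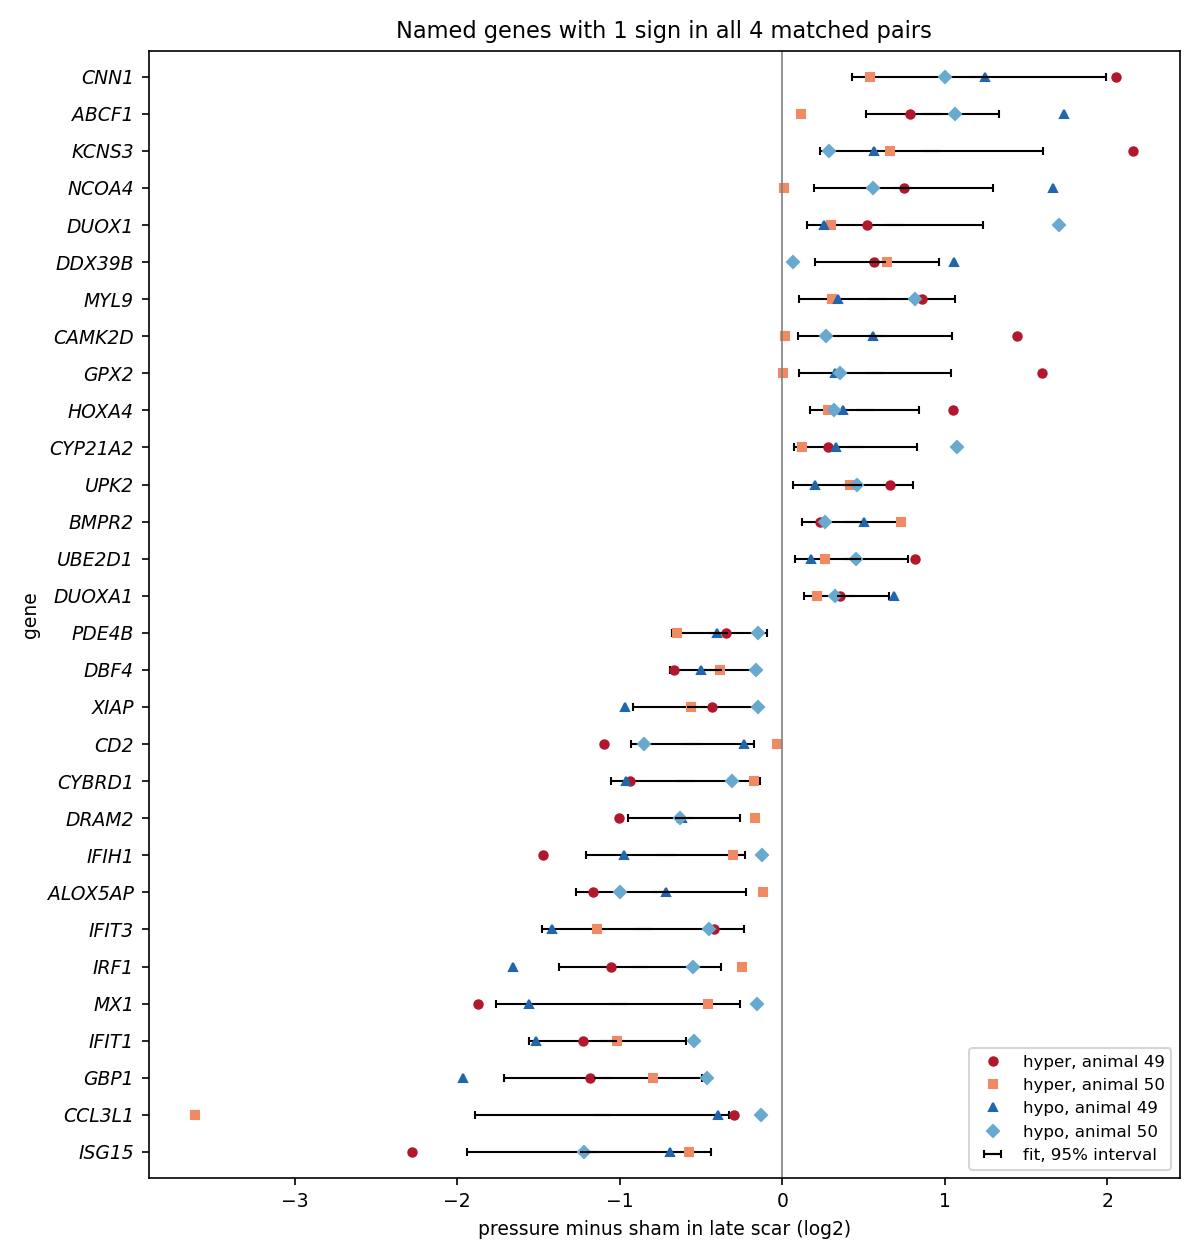
Pressure minus sham in late scar for the 15 higher and 15 lower genes of lowest p with 1 sign in all 4 pairs, on a log2 axis, with the 95% interval of the fitted difference and the 4 matched pairs. The genes were drawn for having 1 sign, so the shared sign is no result. CCL3L1 rests on the hyper pair of animal 50, at -3.61.

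Among features without a symbol, AK230816 had -0.18, -0.36, -0.42 and -0.46 under pressure and 0.81, 0.25, 1.02 and -0.03 under sham and differed by -0.87 ± 0.16, well above background on 1 pressure and 3 sham arrays (limma adjusted p = 0.443). AK230663 had 0.49, 0.47, -0.19 and 0.12 under pressure and 2.01, 1.53, 1.53 and 0.87 under sham and differed by -1.27 ± 0.25. Neither overlapped between the groups. Of the higher ones, TC589761 had 0.39, 0.20, 0.58 and 0.86 under pressure and -0.15, -0.33, 0.17 and -0.33 under sham, without overlap, and TC532136, with 1 pressure spot missing, was well above background in 2 pressure biopsies and 0 sham biopsies. By the Cy5 channel alone TC532136 was about 1.36-fold higher under pressure, with the pressure hypo biopsy of animal 50 highest, at 1.33.

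The pressure effect in hyper scar was also set against that in hypo scar gene by gene. The genes given here had the lowest p in this contrast, so their opposite signs largely follow from the choice. BTG3, an antiproliferative factor, had pair differences of -0.53, -0.88, 0.49 and 0.42, below 0 in both hyper pairs and above 0 in both hypo pairs, a contrast of -1.16 ± 0.30 (hyper minus hypo, limma adjusted p = 0.98). EMP1, an epithelial membrane protein, had -1.11, -0.63, 1.31 and 0.35, and SLC7A1, a transporter of cationic amino acids, had -0.84, -0.97, 0.81 and 0.13, in the same pattern. PKIA, an inhibitor of protein kinase A that is high in muscle, had 3.44, 1.41, -0.25 and -0.47, highest in the pair with the highest muscle values. None passed, and with 2 pairs for each pigmentation the median 95% interval of this contrast reached 0.76 log2 units to each side.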

How the data were processed

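The study put 28 biopsies on 2-colour Agilent pig arrays. The deposited scanner files hold intensity values for each spot, which the authors extracted with Agilent Feature Extraction 10.7.1.1, per the submitters' processing notes. Per the file headers, the scanner's own log10 ratio is of red over green, with the biopsy in red per the labels' dye fields. The deposited value table holds log2 ratios of the processed signals and was used as an alternative; its values equalled those of the scanner files within 0.001 for nearly all probes, and its column medians, 0.01 to 0.26, show that it was not centred further. From the median spot and background intensity, local background values above each array's 99th percentile were set to that percentile, then background was corrected with normexp (offset 50) and normalised by loess within each array (R 4.3.3, limma 3.58.1 and the package data.table, version 1.17.8). Of 43603 probes, 24513 were well above background in Cy5 on 4 or more arrays. Control spots were left out, and the probe of highest mean Cy5 signal was kept for each gene, which gave 18769 features in the fit, 2606 with a symbol and 16163 without, with 5 left out. Symbols came from matching each probe's accession, without version, to RefSeq transcripts, and covered 6816 probes of 3152 genes. Spots with outlier flags were set to missing, 0.532% of values. The model had 11 group means and animal as a block, and p-values were adjusted by Benjamini and Hochberg over all features at 0.05. The number of arrays limits the precision.

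Pressure and sham biopsies were paired by animal number and pigmentation. Over features, same-numbered biopsies of 2 late groups deviated together with correlations of -0.07 to 0.40, and the pairing rests on the shared animal. Named were the 15 higher and 15 lower genes of lowest p with 1 sign in all 4 pairs, up to 4 genes of lowest p in each list, the 2 higher and 2 lower features without a symbol of lowest p, and 4 genes of the pigmentation contrast. Other genes named, such as COL1A2, POSTN, CXCL10, IRF7, TYR and DCT, were chosen after their values were seen. The comparison, the 31 gene lists and the alternatives were chosen with earlier results of these data known. Fold values by the Cy5 channel alone use that channel after loess and Aquantile scaling. The fit was tested on simulated data. The alternatives were other background, scaling, filter, block and weight settings, each biopsy left out, and 3 added after the data were seen.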

Additional observations from a re-analysis of the deposited data

Results flagged for a closer look

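Each of 30 named genes and 30 gene lists was examined for a biopsy that lay apart from the other 3 of its group, and chance alone marks about 1 in 20 groups. On the log2 ratio scale, CYP21A2 was at 1.19 in the pressure hypo biopsy of animal 50, against 0.35 to 0.44 in the other pressure biopsies, and at 0.23 in the sham hyper biopsy of animal 50, against 0.09 to 0.12 in the other sham biopsies. GBP1 was at -2.25 in the pressure hypo biopsy of animal 49, against -1.55 to -1.43 in the others, and ISG15 was at 1.89 in the same biopsy, against 0.74 to 0.83. CCL3L1 was at 2.85 in the sham hyper biopsy of animal 50, against -0.59 to -0.22, and IFIT3 was at 1.05 in the sham hypo biopsy of animal 50, against 1.62 to 1.73. The pressure hyper biopsy of animal 49 stood apart for the mean of the hypoxia list, at 0.79 above control skin against -0.21 to -0.19 in the other pressure biopsies. It also stood apart for the respiratory chain list, at 0.84 against -0.43 to -0.34.

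For 3 of 30 lists the matched pairs of 1 condition all lay on the other side of 0 from those of another, and these differences were not tested. With 2 pairs for each pigmentation, chance alone often gives such a split between hyper and hypo scar. The hypoxia list had medians of pressure minus sham of 0.61 and 0.064 in the hyper pairs, against -0.23 and -0.047 in the hypo pairs. The nerve and Schwann cell list had -0.35 and -0.23 in the hyper pairs, against 0.14 and 0.085 in the hypo pairs. The sebaceous and lipid list had -0.15, -0.14, -0.18 and -0.14 in late scar, against 0.086, 0.022, 0.21 and 0.080 in mid scar.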

How the results depend on the processing

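Among 30 alternatives, the count of features passing in late pressure against sham remained 0 except with the deposited value table (5, of which 4 were higher) and when biopsies were left out. The deposited table gave 2 in hypo scar, and no cap on the local background gave 1 in hyper scar. Leaving out each biopsy in turn gave 0 to 48 features in late scar, 0 to 298 in hyper scar, 0 to 13 in hypo scar, 0 to 103 for the contrast of hyper with hypo scar and 0 to 3 for late against mid scar. The highest of the first 2 and of the contrast came without the pressure hyper biopsy of animal 50, and a lone remaining biopsy is assumed to vary like the other groups. The alternatives added after seeing the data gave, for late, hyper, hypo, hyper against hypo and late against mid, 4, 10, 1, 5 and 1 without both hyper biopsies of animal 49, 5, 0, 6, 6 and 2 without both hypo biopsies of animal 49, and 4, 12, 0, 7 and 1 without both sham biopsies of animal 49.

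Of the 26 interferon genes, 18 were lower at unadjusted p below 0.05 (2.70% of all features). The number was 8 without the cap (1.57% of all features), 8 with median centring (1.05%) and 10 with slide as a fixed block (1.83%). With single biopsies left out it was 5 to 19, where 1.51% to 5.20% of all features were lower. The 5 came without the sham hyper biopsy of animal 49 (1.51%). In the 3 added alternatives, in the order above, it was 4, 5 and 3 (1.20%, 2.45% and 2.70%). The interferon median was -1.02 in animal 49 alone and -0.21 in animal 50 alone. Of the 10 contractile genes, 4 were higher at unadjusted p below 0.05 (2.91% of all features). That count was 2 without the cap (1.39%) and 2 with the 8 late arrays and animal and pigmentation as blocks (1.305%). It was 1 with slide as a fixed block (5.59%) and 2 with array weights (1.53%). With single biopsies left out it was 0 to 6, where 1.39% to 5.52% of all features were higher. Without both hyper and both hypo biopsies of animal 49 it was 1 and 2 (1.41% and 2.56%). The contractile median of 0.65 was 0.21 without the pressure hyper biopsy of animal 49 and 0.15 in the pairs of equal title number.

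With the matched pair as a replicate block on the 8 late arrays, 0 features passed with limma (817 at unadjusted p below 0.05). There 16 interferon genes were lower (2.60% of all features) and 4 contractile genes higher (1.75%). Without any replicate block 0 passed (1024), with 18 interferon genes lower (2.65%) and 4 contractile genes higher (2.81%). The early right against left comparison gave 0 with the pair as replicate block (507). Against 547 higher and 506 lower, slide as a fixed block gave 1050 and 344, and the deposited values gave 921 and 443. The cause of these shifts was not tested. The signs of TGFBR1 (0.061 without the cap, 0.14 without both sham biopsies of animal 49) and of the EMP1 contrast (0.48 without the cap) turned. CCL3L1 passed without the sham hyper biopsy of animal 49 (-1.86), CNN1 (1.79) and PKIA (3.93) without the pressure hyper biopsy of animal 50, and AK230816 (-1.13) without the sham hypo biopsy of animal 50. For dim probes the fold values by Cy5 alone are rough.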
